A study of Mus musculus with 312 samples.

Results

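The basal keratins examined here were 6 genes, Krt5, Krt14, Krt15, Krt16, Krt17 and Krt6a, taken by symbol from the 25138 genes used. Their RNA was read in 312 single cells that were sorted from FVB/NJ mammary glands, with basal given as their source. The cells comprised 112 adult cells whose title carries the mark (2), 125 adult cells without that mark, and 75 cells from pregnant mice, and no group received a treatment. Capture and full-length cDNA synthesis used the Fluidigm C1, which handles every cell in a chamber of its own, and libraries were sequenced without molecular identifiers. The labels do not explain the mark, name no animals and give no day of pregnancy. The methods describe adult basal cells as sorted on high CD29 with CD24 from pooled mice, whereas the C1 cells of mid-pregnancy are described there as total epithelium, so the basal identity of the pregnancy cells rests on their labels.

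Keratins are the proteins of the intermediate filaments of epithelial cells. Each filament is built from pairs of a type I and a type II chain, and the filaments are anchored to neighbouring cells at desmosomes and to the basement membrane at hemidesmosomes. In the mammary gland the outer, contractile basal layer is recognised by Krt5 and Krt14, whereas Krt8, Krt18 and Krt19 mark the inner luminal layer. Krt5 (type II) is the usual partner of Krt14 (type I) in basal cells of stratified epithelia, Krt15 (type I) is found in basal keratinocytes and the hair follicle bulge, Krt17 (type I) in hair follicles and basal or injured epithelium, and Krt6a (type II) with Krt16 (type I) in injured or fast-growing epidermis.

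The 4 type I members lie in 1 cluster on chromosome 11, all on the minus strand (GRCm38). Krt15 spans chr11:100131759-100135949, Krt14 chr11:100203162-100207510, Krt16 chr11:100246091-100248902 and Krt17 chr11:100256215-100261029, and each has 8 exons. The type II members lie on the minus strand of chromosome 15, Krt6a at chr15:101689928-101694305 and Krt5 at chr15:101707069-101712905, each with 9 exons. Krt42, a type I keratin that is no member, lies next to Krt17 at chr11:100262882-100269951. The type I coding sequences were close to each other. Krt14 was 84.1% identical to Krt17 and 86.5% to Krt16, Krt17 was 79.9% identical to Krt42, and Krt5 was 81.5% identical to Krt6a.

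The sequences bear on the values because reads were short. Stretches of 75 bases were compared, the shorter of the read lengths given in the methods. Reads came in pairs, and the comparison took no account of the mate. A window of 90 bases in exon 3 is shown for the type I genes. It was chosen within a single exon, without gaps in any gene shown, for the fewest differences between Krt17 and Krt42. The bases come from the GENCODE M21 annotation of GRCm38 and are written 5′ to 3′ along the coding strand, with capitals at each base that differs from Krt17.
Krt17, chr11:100259222-100259311, minus strand: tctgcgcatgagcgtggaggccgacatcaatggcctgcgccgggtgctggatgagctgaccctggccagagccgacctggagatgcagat
Krt14, chr11:100204997-100205086, minus strand: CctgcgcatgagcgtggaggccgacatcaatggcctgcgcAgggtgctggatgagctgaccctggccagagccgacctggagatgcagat
Krt42, chr11:100266984-100267073, minus strand: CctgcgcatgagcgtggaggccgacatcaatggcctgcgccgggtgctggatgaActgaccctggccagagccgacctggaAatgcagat
Krt15, chr11:100134224-100134313, minus strand: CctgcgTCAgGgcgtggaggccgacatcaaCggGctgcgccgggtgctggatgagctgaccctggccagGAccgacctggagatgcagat
Krt16, chr11:100247611-100247700, minus strand: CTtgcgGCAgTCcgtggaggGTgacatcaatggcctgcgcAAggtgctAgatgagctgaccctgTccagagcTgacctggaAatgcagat
Krt14 differed from Krt17 at 2 of these 90 bases, Krt42 at 3, Krt15 at 9 and Krt16 at 15. The longest run without a difference between Krt14 and Krt17 was 71 bases, so no 75-base stretch of the 1 transcript occurred whole in the other, and the same held for Krt17 with Krt42.

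Krt14 and Krt16 shared an identical run of 134 bases of exon 1, and 5.91% of the 75-base stretches of Krt14 occurred whole in Krt16. This run is shown because a read inside it holds no base that tells the pair apart, and it contains no capitals for that reason.
Krt14 at chr11:100207017-100207150 and Krt16 at chr11:100248476-100248609, minus strand: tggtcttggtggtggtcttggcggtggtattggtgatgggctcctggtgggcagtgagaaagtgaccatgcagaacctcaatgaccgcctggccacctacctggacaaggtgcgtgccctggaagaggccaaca
Krt6a was 97.8% identical to Krt6b, and 36.2% of its 75-base stretches occurred whole there. How the authors' counting treated reads that match several places is not given in the sources used here. Low values of Krt16 beside high values of Krt14 are therefore uncertain, and so are low values of Krt6a. Krt6b itself had very few reads in these cells.

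The filter on depth retained 81 adult (2) cells, 58 unmarked adult cells and 71 pregnancy cells, 210 in all. Assigned reads per retained cell had medians of 174910, 101320 and 230645 in that order, within a range of 51464 to 405910. The median share of mitochondrial reads was 9.65%, 15.6% and 18.4%. The basal label was checked with 8 markers that are no keratins, such as Acta2 (smooth muscle actin) and Trp63 (the transcription factor p63). At least 4 of them reached 100 CPM (the count of a gene per 1e6 assigned reads) in 97.5% of adult (2) cells, 91.4% of unmarked adult cells and 100% of pregnancy cells. The 7 cells that did not pass are described with the keratins below. Each set was treated as 1 sample, so no test was possible. Intervals (95%) of medians and shares cover variation among the cells of a set, and those of summed reads cover counting error. None covers variation between animals. The stage cannot be told apart from differences between the sets in animals, capture or preparation, and the difference between the adult sets served as the yardstick.

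Krt17 differed most between adult and pregnancy cells among the members read from many cells, with a log2 ratio of -2.81 over all adult cells. Krt14 was high in nearly every cell of each set, with a mean in pregnancy close to that of the unmarked adult cells. Krt5 was lower per length than Krt14 in each set and was also below both adult means in pregnancy. Krt15, Krt16 and Krt6a were carried by few cells, and their means rested in part on single cells.

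Krt14 ranged in adult (2) cells from 12.3 to 25262 CPM with a median of 4308 CPM (interval 3491 to 5000). In unmarked adult cells it ranged from 9.08 to 10943 CPM with a median of 3325 CPM (2040 to 4613), and in pregnancy cells from 89.4 to 9206 CPM with a median of 3058 CPM (2029 to 3717). The 3 ranges overlapped almost whole, and Krt14 had at least 1 read in each of the 210 cells. Its mean was 5101 CPM, 3575 CPM and 3262 CPM in the same order, from 79850, 24274 and 54244 reads. On the log2 scale, with 10 CPM added to each mean, pregnancy was lower by 0.64 than adult (2) cells (log2 ratio -0.64), and its log2 ratio over unmarked adult cells was -0.13. The adult sets themselves differed by -0.51 (unmarked over (2)), which is more than the difference of pregnancy from the unmarked cells. That second ratio also changed sign with the scaling, to 0.19 with TMMwsp factors and 0.57 as a difference of mean log2 values.

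Krt17 ranged from 0 to 17739 CPM in adult (2) cells with a median of 3700 CPM (2576 to 4606). In unmarked adult cells it ranged from 0 to 26659 CPM with a median of 1184 CPM (335.3 to 2561). Its range in pregnancy cells was 0 to 4721 CPM, with a median of 147.0 CPM (59.6 to 290.1). The interval of the pregnancy median lay below those of both adult sets, although single cells overlapped. The mean was 4591 CPM, 3486 CPM and 579.6 CPM, from 74426, 29173 and 11057 reads. The log2 ratio of pregnancy was -2.96 over adult (2) cells and -2.57 over unmarked cells, against -0.40 between the adult sets, a value that itself ran from -1.84 to 0.17 over the alternatives. Over the 9 alternatives the ratio over all adult cells, -2.81, stayed between -3.18 and -2.55.

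The share of Krt17 cells changed with the level asked for. Krt17 reached 1000 CPM in 65 of 81 adult (2) cells (80.2%), 30 of 58 unmarked cells (51.7%) and 11 of 71 pregnancy cells (15.5%). It reached 100 CPM in 92.6% (84.6 to 97.2%), 75.9% (62.8 to 86.1%) and 53.5% (41.3 to 65.5%). After each cell was thinned to 50000 assigned reads, at least 1 Krt17 read remained in 97.5%, 86.2% and 77.5%. Krt17 RNA was thus found in most pregnancy cells, at levels that were lower than in adult cells and spread widely.

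Krt5, the type II partner, ranged from 0 to 4370 CPM in adult (2) cells, with a median of 310.1 CPM (212.2 to 567.9). Unmarked adult cells ranged from 0 to 3552 CPM with a median of 136.8 CPM (63.1 to 288.0), and pregnancy cells from 0 to 1974 CPM with a median of 167.2 CPM (102.5 to 258.7). The pregnancy median thus lay between the adult medians, and its interval overlapped both. By the mean, which was 649.6 CPM, 448.9 CPM and 293.4 CPM, pregnancy was below both. The log2 ratio was -1.12 over adult (2) cells and -0.60 over unmarked cells, against -0.52 between the adult sets. Against unmarked cells it was 0.07 as a difference of mean log2 values, so its direction there is not settled. Krt5 reached 100 CPM in 74.1%, 56.9% and 64.8% of cells, and after thinning at least 1 read remained in 90.1%, 81.0% and 84.5%.

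**Figure D1:**
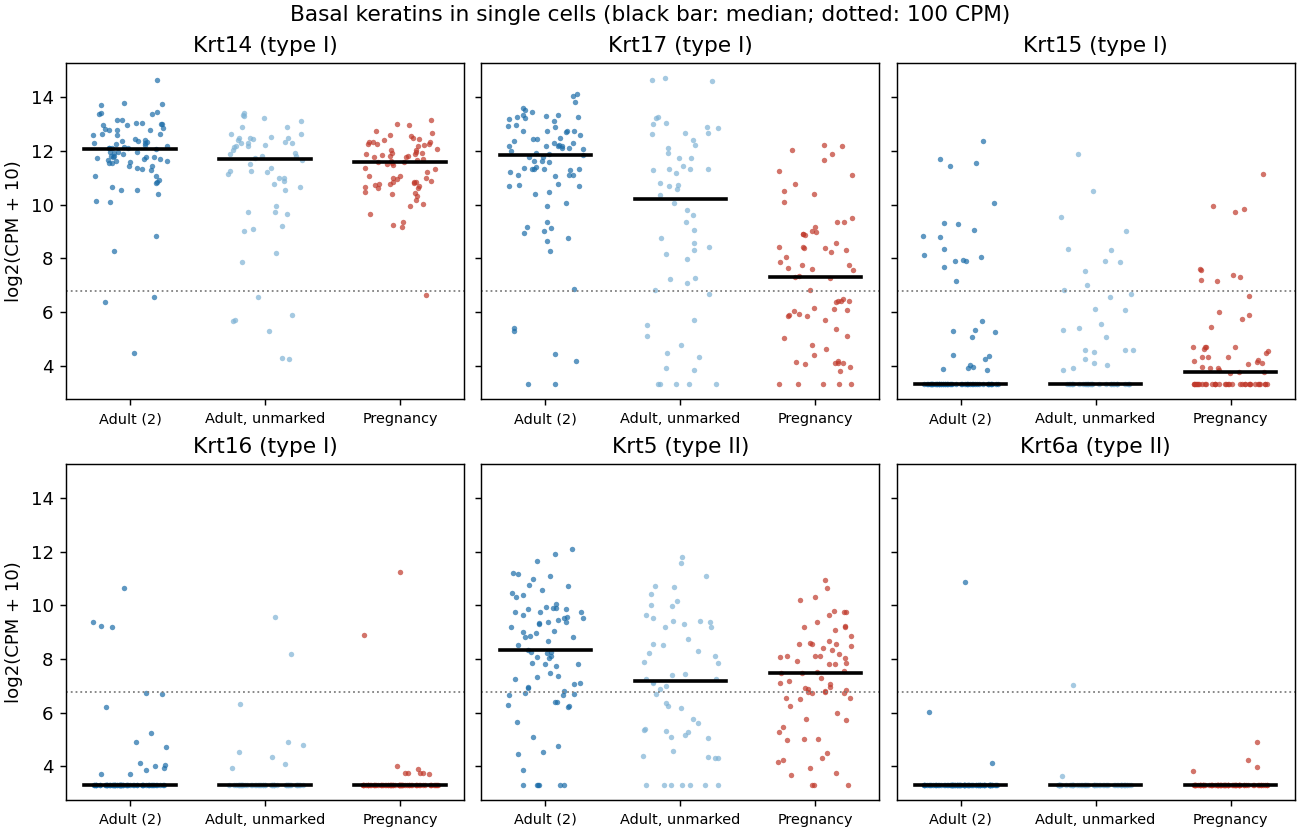
Level of each keratin in each retained cell as log2(CPM + 10), 1 point a cell, for 81 adult (2), 58 unmarked adult and 71 pregnancy cells, with the median as a black bar and 100 CPM as a dotted line. Krt17 medians step from 3700 to 1184 to 147.0 CPM, Krt14 stays above 100 CPM in all but 1 pregnancy cell, and most cells lie at the bottom for Krt15, Krt16 and Krt6a.

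Krt15 was absent from the counts of 50 adult (2) cells, 30 unmarked cells and 34 pregnancy cells, and the highest cells held 5334, 3779 and 2251 CPM. Its medians were 0, 0 and 3.79 CPM. It reached 100 CPM in 18 (22.2%), 11 (19.0%) and 10 (14.1%) cells, and each of these 39 cells also had Krt14 at 100 CPM or more. Mean Krt15 was 248.8 CPM, 145.9 CPM and 90.3 CPM. A single cell gave 26.5% of the adult (2) sum, 44.7% of the unmarked sum and 35.1% of the pregnancy sum, and without these cells the means were 185.2, 82.1 and 59.4 CPM. The log2 ratio of pregnancy was -1.37 over adult (2) cells and -0.64 over unmarked cells, against -0.73 between the adult sets. Thinned to equal depth the order of the shares turned, with at least 1 Krt15 read in 28.4%, 36.2% and 36.6% of cells. The level asked for thus decided the order of the sets for Krt15.

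The cells highest for Krt15 differed in their other keratins. Adult (2) cell 28, the highest for Krt15, was also the highest for Krt14 at 25262 CPM, and its Krt5 was 40.3 CPM. Unmarked cell 144 had 10047 CPM of Krt14 and 43.8 CPM of Krt5, and pregnancy cell 25 had 8219 CPM of Krt14 and 113.7 CPM of Krt5. In these cells Krt14 was above its set's median and Krt5 below. The next highest adult (2) cells went the other way on Krt5, with 1497 CPM of Krt5 beside 3292 CPM of Krt15 in cell 40 and 2154 CPM beside 3006 CPM in cell 60.

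Krt16, an epidermal keratin of wounds, had reads in 17 adult (2), 9 unmarked and 9 pregnancy cells, with medians of 0. It reached 100 CPM in 4, 2 and 2 cells, and 100 CPM of Krt14 was present in each of these 8. The highest cells held 1608, 739.6 and 2376 CPM, which was 42.6%, 63.6% and 82.6% of the sum of their set. Mean Krt16 was 46.6 CPM, 20.1 CPM and 40.5 CPM, and 27.1, 7.43 and 7.14 CPM without the highest cell. Its log2 ratio of pregnancy over all adult cells was 0.15, and -0.76 without the highest cells, so no direction can be given. In pregnancy cell 63, which had 691 Krt16 reads, Krt14 was 3717 CPM. The part that reads shared with Krt14 have in the Krt16 values was not tested.

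Krt6a, the other injury keratin, had reads in 3 adult (2), 2 unmarked and 4 pregnancy cells. It reached 100 CPM in 1 adult (2) cell, 1 unmarked cell and no pregnancy cell, and 0 of 71 allows a share of up to 4.23%. Adult (2) cell 69 held 311 of the 323 Krt6a reads of its set (1870 CPM), together with the highest Krt5 of any cell, 4370 CPM, and 14542 CPM of Krt17. Krt6b was 6.01 CPM in that cell, and the part that reads shared between Krt5 and Krt6a have in its value was not tested. Unmarked cell 130 held 23 of 24 Krt6a reads (120.0 CPM) without a Krt5 read, and it was 1 of the cells in which the basal markers were missing. Mean Krt6a was 23.9 CPM, 2.11 CPM and 0.546 CPM, and without the highest cell 0.780, 0.0443 and 0.269 CPM, so its ratios say nothing beyond these cells.

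Read against all genes, 4 of the 6 members had a mean of at least 50 CPM in at least 1 set, as did 5197 genes in all, and Krt16 and Krt6a did not. Krt17 alone of these 4 was lower in pregnancy than in both adult sets by 2-fold or more, which held for 5.95% of the 5197 genes. None of the 4 was higher than both by 2-fold or more, which held for 8.81%. Lower than adult (2) cells by 2-fold or more were 3 of 4 (Krt5, Krt15 and Krt17), against 14.1% of genes, and lower than unmarked cells 1 of 4 (Krt17), against 18.2%. Between the adult sets none of the 4 was 2-fold lower in unmarked cells, which held for 16.4% of genes. All 4 were below both adult means by some amount, against 32.1%. The median log2 ratio over all adult cells was -1.02 over these 4 and -0.07 over the 5197 genes. TMMwsp factors moved that median of all genes to 0.18, with 210 genes lower and 731 higher by 2-fold in place of 309 and 458, and a difference of mean log2 values moved it to 0.30, with 32 lower and 544 higher. The Krt17 ratio under these scalings was -2.55 and -3.18, below the median of all genes in each.

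**Figure D2:**
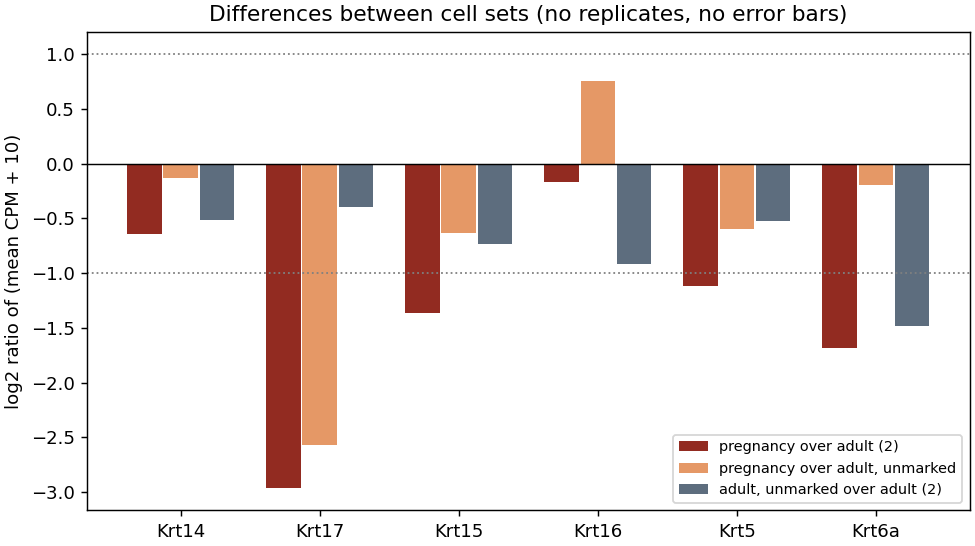
Log2 ratio of mean CPM + 10 for each keratin between pregnancy and each adult set and between the adult sets, with dotted lines at a 2-fold difference. The bars have no error because each set is 1 sample. Both pregnancy bars pass the line for Krt17 alone (-2.96 and -2.57), while its bar between the adult sets is -0.40, and the bars of Krt16 and Krt6a rest on single cells.

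At 100 CPM no cell of any set had Krt5 without Krt14, and none had Krt17 without Krt14. These zeros allow up to 3.70%, 5.17% and 4.23% of cells in adult (2), unmarked and pregnancy sets. Only 3, 7 and 1 cells lacked Krt14 at that level, so few cells could have broken the pattern. Most Krt5 cells of the adult sets also had Krt17, 59 of 60 in adult (2) and 29 of 33 in unmarked cells. Krt17 was present there in 92.6% and 75.9% of all cells. Krt5 and Krt17 were less nested in pregnancy cells. In pregnancy 46 cells had Krt5, 38 had Krt17 and 23 had both. Krt5 and Krt14 together were found in 60 of 81 adult (2) cells (74.1%, interval 63.1 to 83.2%), 33 of 58 unmarked cells (56.9%, 43.2 to 69.8%) and 46 of 71 pregnancy cells (64.8%, 52.5 to 75.8%). Krt5, Krt14 and Krt17 together were found in 72.8%, 50.0% and 32.4%. Krt14 without Krt17 was found in 3 (3.70%), 7 (12.1%) and 32 cells (45.1%, 33.2 to 57.3%). Most adult (2) cells thus carried 3 or 4 members, 41 and 19 cells, whereas 34 of 71 pregnancy cells carried 2.

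Cells without Krt14 were few. No member reached 100 CPM in 3 adult (2), 6 unmarked and 1 pregnancy cell. Of the 7 cells that did not pass the check of the basal label, unmarked cell 157 had 6 of 8 fibroblast genes and 9.08 CPM of Krt14. Unmarked cell 126 had 3 fibroblast genes and 41.0 CPM of Krt14. Unmarked cell 130 had 4 of 8 luminal genes, 5096 CPM of Krt18 and 41.7 CPM of Krt14, and unmarked cell 169 had 9.66 CPM of Krt14. In adult (2) cell 19, which had 7 of 8 immune genes, Krt14 was 449.6 CPM. Adult (2) cell 95 had 3442 CPM of Krt14 with 3 of the 8 basal markers, and unmarked cell 120 had 222.1 CPM with a mitochondrial share of 79.5%. Krt14 was thus below 100 CPM in unmarked cells 157, 126, 130 and 169, although at least 1 Krt14 read was present in each of the 7 cells. Without them the log2 ratios of pregnancy over all adult cells were -2.88 for Krt17, -0.99 for Krt5 and -0.52 for Krt14.

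Spread from cell to cell was smallest for Krt14, whose coefficient of variation of CPM was 0.764 in adult (2), 0.817 in unmarked adult and 0.602 in pregnancy cells. Krt17 had 0.875, 1.70 and 1.91, so it varied about as much as Krt14 in adult (2) cells alone. For Krt5 the coefficient was 1.30, 1.61 and 1.28. Krt15 lay between 3.30 and 3.67, Krt16 between 4.51 and 7.08, and Krt6a between 4.93 and 8.71, as fits genes that a few cells carry. Thinning to equal depth left the Krt17 values at 0.871, 1.72 and 1.92. The middle 50% of Krt17 values ran from 1666 to 6896 CPM in adult (2) cells, from 108.0 to 4252 CPM in unmarked cells and from 28.1 to 471.3 CPM in pregnancy cells.

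By rank, the keratins followed each other only loosely from cell to cell, and some pairs were closer on the log2 scale. Their correlations are descriptions over the cells of a set, which may share animals and capture and are no replicates of a condition. Krt14 and Krt17 had a Spearman rho of 0.41 in 81 adult (2) cells and 0.48 in 58 unmarked cells, and of 0.04 in 71 pregnancy cells. Without the cells that missed the basal markers the unmarked value was 0.34. Pearson r of log2(CPM + 10) for this pair was higher in the adult sets, at 0.70 and 0.64, and was 0.10 in pregnancy. Krt5 and Krt14, which pair in filaments, had a Spearman rho of 0.08, 0.51 and 0.36. The low value in adult (2) cells depended on the measure, since Pearson r of log2(CPM + 10) was 0.34 there. Krt5 and Krt17 had a rho of 0.43, 0.26 and -0.02, and the unmarked value was 0.13 without the cells that missed the basal markers. Pearson r for Krt5 and Krt17 was 0.52, 0.31 and -0.01. Depth moved little with these genes, as rho with assigned reads was 0.22, -0.14 and 0.06 for Krt14 and 0.24, 0.17 and 0.18 for Krt17. Pairs with Krt15, Krt16 or Krt6a are in the plot of correlations and rest on few cells above 0.

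**Figure D3:**
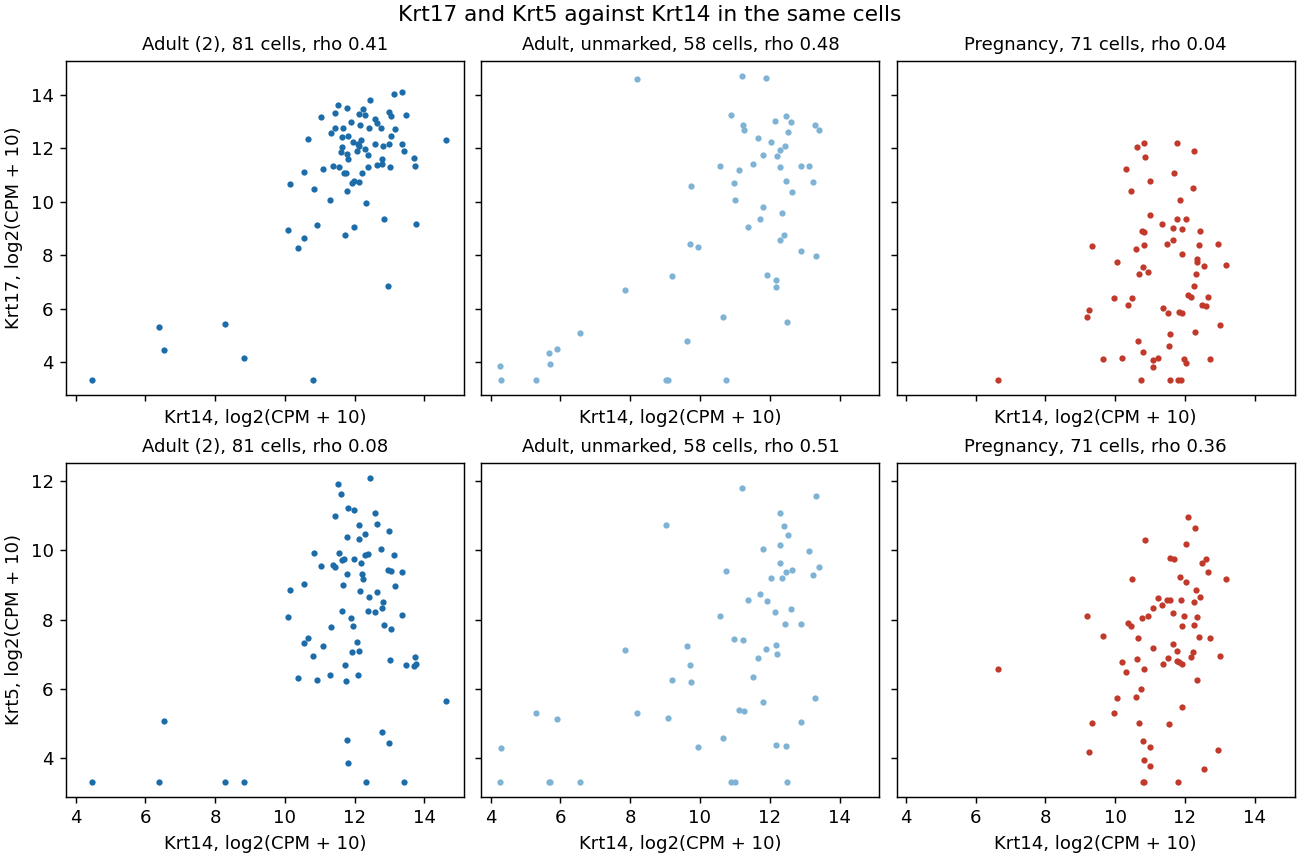
Krt17 (upper row) and Krt5 (lower row) against Krt14 in the same cells, as log2(CPM + 10), 1 point a cell, with Spearman rho above each panel. In adult cells the lowest Krt17 values occur mostly with low Krt14 (rho 0.41 and 0.48), whereas pregnancy cells with like Krt14 levels cover the whole range of Krt17 (rho 0.04).

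**Figure D4:**
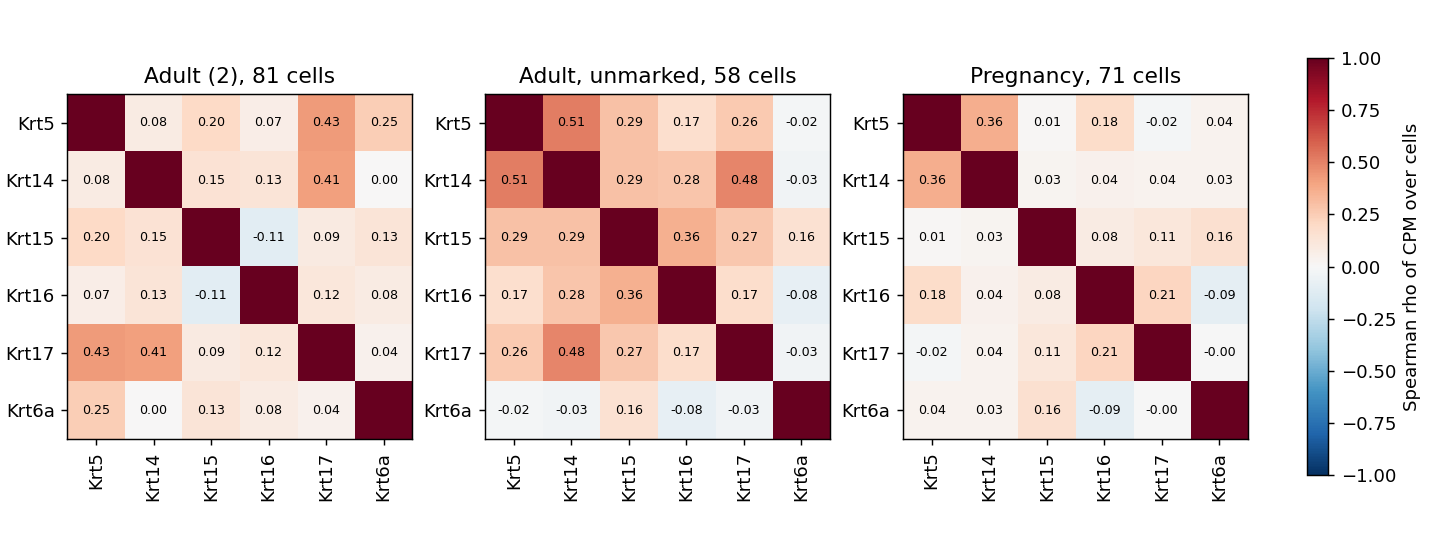
Spearman rho of CPM between the 6 keratins over the cells of each set, coloured from -1 to 1. Krt14 with Krt17 is 0.41 and 0.48 in the adult sets and 0.04 in pregnancy, and rho of the rare Krt16 and Krt6a stays near 0 in most pairs.

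Per length, Krt17 and Krt14 were nearly equal in adult (2) cells and far apart in pregnancy. The Krt17 to Krt14 ratio of RPKM (CPM per kilobase of exon) had a median of 0.857 in adult (2) cells (interval 0.529 to 1.11), 0.358 in unmarked cells (0.266 to 0.782) and 0.0501 in pregnancy cells (0.0206 to 0.0979). Krt17 exceeded Krt14 in 35 (43.2%), 17 (29.3%) and 6 cells (8.45%). Because both genes were read in the same cell, this ratio does not depend on how the cell was scaled. Mean RPKM placed the members in the order Krt14 (3073), Krt17 (3038), Krt5 (296.6), Krt15 (144.6), Krt16 (29.8) and Krt6a (10.6) in adult (2) cells, where the first 2 do not differ beyond their spread. In pregnancy the order was Krt14 (1965), Krt17 (383.6), Krt5 (134.0), Krt15 (52.5), Krt16 (25.9) and Krt6a (0.242). In unmarked cells Krt17 (2307) stood above Krt14 (2154) by the mean and below it by the median, 783.7 against 2003 RPKM.

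Type I RNA exceeded type II RNA in almost every cell, although the filament takes both chains in equal number. Summed over all 28 type I and 26 type II keratin genes, the median type I to type II ratio of RPKM was 16.3 in adult (2) cells (11.6 to 24.8), 14.8 in unmarked cells (10.0 to 25.4) and 12.8 in pregnancy cells (8.12 to 18.2). These intervals overlapped. Type I was higher in 81 of 81, 56 of 58 and 69 of 71 cells. Median type I RNA was 5885, 3960 and 2454 RPKM, and median type II RNA was 336.6, 151.9 and 183.0 RPKM. Krt14 made up 47.2% of type I RNA in adult (2) cells, 44.8% in unmarked cells and 75.7% in pregnancy cells, and Krt17 46.7%, 48.0% and 14.8%. Among type II keratins Krt5 made up 65.8%, 61.2% and 44.3%, and the luminal keratin Krt8 27.9%, 31.4% and 47.6%. The 6 members together took 1.12%, 0.824% and 0.444% of assigned reads.

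**Figure D5:**
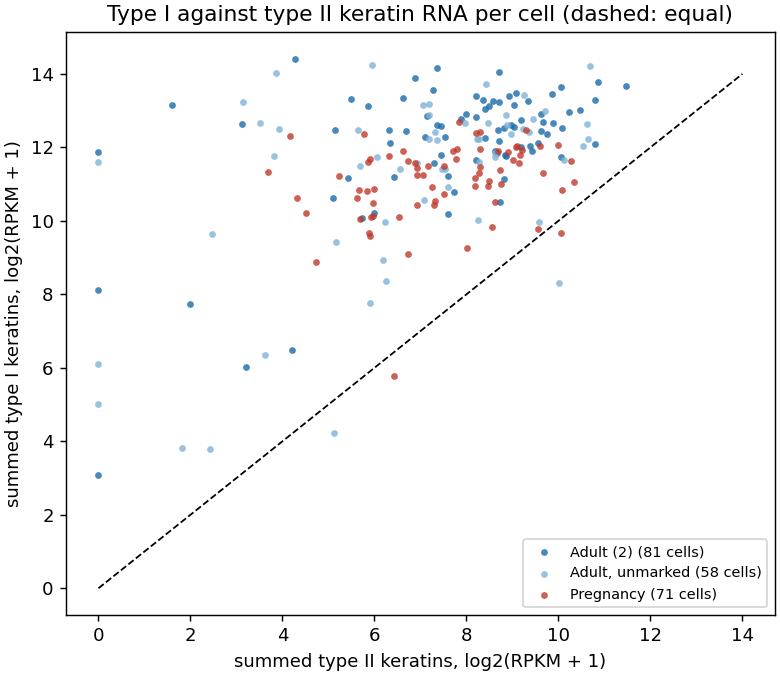
Summed RPKM of 28 type I keratins against 26 type II keratins, both as log2(RPKM + 1), 1 point a retained cell, with a dashed line where they are equal. All but 4 of the 210 cells lie above the line, and median ratios are 16.3 (adult (2)), 14.8 (unmarked adult) and 12.8 (pregnancy).

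Krt42, the neighbour that differs from Krt17 by 3 bases in the window above, had reads in 24 adult (2), 11 unmarked and 5 pregnancy cells, with means of 96.8, 75.7 and 0.362 CPM. Its reads equalled 1.98%, 2.05% and 0.0543% of those of Krt17. Over all retained cells, those without Krt17 reads included, rho of the pair was 0.09 in adult (2), 0.32 in unmarked and 0.06 in pregnancy cells. The part that reads shared with Krt17 have in these values was not tested.

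The genes whose pattern was most like a member's were sought among the 932 other genes detected in at least 25% of each set, by the smallest of the 3 rho values. For Krt17 the nearest was Sfn, which encodes the 14-3-3 protein stratifin of epithelial cells, with rho of 0.46, 0.50 and 0.47. The next were Ext1, Ndufa11, Ptn and Lamb3, whose smallest rho was 0.24 or less, with single values up to 0.38 (Ndufa11 in adult (2) cells). For Krt14 the nearest was Tagln (transgelin, an actin-binding protein of smooth muscle), with 0.36, 0.57 and 0.34, followed by Myl6, Pmepa1, Mt1 and Gm10080. For Krt5 it was Oxtr, the oxytocin receptor through which basal cells are made to contract, with 0.31, 0.33 and 0.32, followed by Fblim1, Ndufb6, Dusp7 and Map3k20. No member was among the nearest 5 of another, as Krt14 ranked 167th for Krt17 and 113th for Krt5. Unlike Krt17, Sfn was not lower than both adult sets in pregnancy, with means of 549.9, 1317 and 702.5 CPM. Krt15, Krt16 and Krt6a were detected in too few cells for this ranking.

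Other genes of the basal layer were counted by the same 2-fold rule, which 5.95% of all genes met as lower and 8.81% as higher. Of 6 contractile genes, Mylk (myosin light chain kinase) was higher in pregnancy than in both adult sets by 2-fold or more, with log2 ratios of 1.14 and 1.88, and the other 5 were past that size against both sets in neither direction. Tagln was at -0.37 and -0.01. Krt17 had rho of 0.44, 0.49 and 0.04 with their summed CPM, and Krt14 0.36, 0.40 and 0.27. Of 14 genes whose proteins attach keratin filaments, 11 were abundant enough to be read against the 5197, and 2 were lower than both adult sets by 2-fold or more. These were Itgb4, the hemidesmosome integrin subunit beta 4 (-2.74 over adult (2) cells and just past 2-fold over unmarked cells), and Cd151, a tetraspanin that binds laminin-receptor integrins (-1.50 and -1.90). Between the adult sets (unmarked over (2)) Itgb4 itself differed by -1.74, more than pregnancy from unmarked cells, and its unmarked mean was only 13.8 CPM. Cd151 differed by 0.40 between the adult sets. Dst, a plakin that links keratin to hemidesmosomes, was at -1.30 and -0.77, and Dsp (desmoplakin) at 0.26 and 0.34. Of 12 transcription factors known to act on keratin genes, 8 were abundant enough. Trp63 alone was higher than both adult sets by 2-fold or more, at 1.45 and 1.56, which held for 8.81% of all genes, and none was lower than both by that size. Klf5, a Krüppel-like factor, was at 1.91 and 0.68, and Nfe2l2 at -0.36 and -0.31.

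Keratins of luminal epithelium differed in another way. Krt8 had means of 227.1, 189.6 and 259.6 CPM, so that its log2 ratios in pregnancy were 0.19 and 0.43. Krt19 was lower in pregnancy, with means of 37.8, 62.5 and 4.71 CPM and ratios of -1.70 and -2.30, and its highest cell gave 42.7% of the unmarked sum. Krt18 was at -0.65 and -0.83. Its unmarked mean of 192.1 CPM rested in part on cell 130, which did not pass the label check and held 5096 CPM, so the second ratio depends on that cell. Over 8 luminal markers the summed level ranged from 0 to 2811 CPM in adult (2) cells, from 0 to 9275 CPM in unmarked cells and from 21.2 to 33287 CPM in pregnancy cells, with medians of 422.0, 356.8 and 449.5 CPM. Of the 3 abundant luminal markers 1 was higher in pregnancy than in both adult sets by 2-fold or more, Wfdc18, against 8.81% of all genes. The mean of Wfdc18 in pregnancy was 508 CPM. A single cell may carry much of it, since 1 pregnancy cell held the luminal sum of 33287 CPM. Of 14 proliferation genes 6 were abundant enough, but Ccnb2, Cenpf, Tpx2 and Bub1 reached a mean of 50 CPM in pregnancy alone. The filter thus largely set their calls as higher there, and these are not counted. Mki67 and Top2a also passed through unmarked cells. Their log2 ratios over adult (2) and unmarked cells were 2.66 and 0.60 for Mki67 and 1.59 and 1.01 for Top2a. Summed over all 14 genes, rho with Krt17 in pregnancy cells was 0.02 and with Krt5 -0.35. The part of these genes in the keratin differences was not tested.

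Most genes of differentiating epidermis were almost absent. Krt1, Lor, Ivl, Krtdap, Dsc1 and Dsg1a had means of 0.46 CPM or less in each set, and Krt10 had means of 1.74, 26.3 and 10.2 CPM. Of the 10 genes on this list, 3 reached 100 CPM in some cell of the adult (2) set, 3 in the unmarked set and 4 in pregnancy, and Sfn made up most of the sum. Fibroblast genes, of which 6 of 8 were abundant enough, had a median sum of 0, 28.4 and 561.5 CPM. Dcn was the largest of them in pregnancy, with means of 106.7, 677.1 and 1113 CPM. The abundant genes did not move together between unmarked and pregnancy cells. Dcn (log2 ratio 0.71) and Pdgfra (1.67) were higher in pregnancy, and Col1a2 (-3.59), Col3a1 (-2.01), Lum (-2.75) and Dpt (-2.52) were lower. The part of fibroblast genes in the keratin differences was not tested.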

How the data were processed

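The values were raw counts deposited by the authors, given as whole read pairs for each of 27179 Entrez IDs in each cell. Per the labels and methods, read pairs were aligned to mm10 with Subread (1.5.0) and counted over the RefSeq exons built into featureCounts. Strand and multi-mapping settings are not given in the sources used here. Reads in 15 mitochondrial genes, 122 ribosomal protein genes and 1904 IDs without a symbol (1.66% of reads) were left out, which left 25138 genes and the assigned reads on which CPM rests. Cells with at least 50000 assigned reads and 1000 genes were retained, and no doublet caller was run. Total reads per deposited cell ran from 41 to 529822.

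Ratios used means over cells plus a pseudocount of 10 CPM, which understates differences of low genes. Shares have Clopper-Pearson intervals, summed reads Poisson intervals and medians binomial rank intervals (95%), and a share of 0 has a limit of 3 counts. Thinning was random without replacement. Reads are not independent molecules, so the Poisson intervals cover counting error only. Intervals of shares and medians take cells as drawn independently, and none covers variation between animals.

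Nearest genes were the 5 with the largest smallest rho over the 3 sets, for members at 100 CPM in at least 25% of each set. The members and lists were chosen with earlier results of these data known. Alternatives changed the cell filter, pseudocount, scaling, detection level and cells included. Python 3.11.15 (numpy 2.4.6, scipy 1.17.1, pandas 2.3.3), R 4.3.3 and edgeR 4.0.16 (TMMwsp factors only) were used, and scripts were tested on simulated data. RefSeq promoters and proteins were not used here.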

Additional observations from a re-analysis of the deposited data

Results flagged for a closer look

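Keratin reads were also present in the cells left out for low depth, which no comparison used. In 31 adult (2) cells the 6 keratins took 2201 of 452520 assigned reads, or 0.486% (interval 0.466 to 0.507%), against 1.12% in retained cells. In 67 unmarked adult cells they took 0.326% (0.313 to 0.34%), against 0.824%. In 4 pregnancy cells they took 0.248% (0.217 to 0.282%), against 0.444%. Each share was below that of the retained cells of its set. Krt14 had reads in 31 of 31, 54 of 67 and 4 of 4 of these cells, and it took 0.244%, 0.229% and 0.189% of their reads. Krt17 took 0.213%, 0.0784% and 0.0224%, so pregnancy was lowest there too. Krt16 and Krt6a had no reads in them.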

How the results depend on the processing

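No paired analysis was possible because the labels name no animals and no result comes from a test. Of the summary values, 104 under the alternatives moved by no more than the difference between adult sets or the interval, and 16 moved by more. The Krt17 ratios of pregnancy kept their sign. The Krt16 ratio of pregnancy over all adult cells did not, and ran from -0.76 to 0.31. Ratios of pregnancy over unmarked cells also changed sign under some alternatives for Krt5, Krt14, Krt16 and Krt6a. As a difference of mean log2 values the Krt15 ratio of pregnancy over adult was -0.31 (main -1.11), and with a pseudocount of 1 CPM the Krt6a ratio was -3.35 (main -1.23). Members lower than both adult sets by 2-fold or more numbered 2 in place of 1 with 100000 assigned reads and 1500 genes (Krt15 added) and with a pseudocount of 1 CPM (Krt6a added). Cells with Krt5 and Krt14 together, 74.1%, 56.9% and 64.8% in adult (2), unmarked and pregnancy cells, became 91.4%, 86.2% and 87.3% at 10 CPM, 42.0%, 29.3% and 18.3% at 500 CPM, and 90.1%, 79.3% and 84.5% with 1 read after thinning. The basal label check rose to 100% in adult (2) cells after thinning. With the 6 members alone the type I to type II ratio was 34.5 in adult (2), 22.1 in unmarked and 28.0 in pregnancy cells, so pregnancy then lay between the adult sets. Without a filter on low values 1.75% of genes were lower than both adult sets by 2-fold. Depth limits the rare keratins most, as most of their cells had no read.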

Other observations

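Krt23, a type I keratin outside the 6 members, was chosen after its values were seen. It reached 100 CPM in 17 of 71 pregnancy cells (23.9%), 3 of 81 adult (2) cells (3.70%) and 1 of 58 unmarked adult cells (1.72%), and its means were 112.6, 13.5 and 9.60 CPM. The highest pregnancy cell gave 17.8% of the pregnancy sum, and the mean without it was 93.9 CPM. Krt23 was therefore higher in pregnancy cells as measured here, the opposite direction to Krt17, in sets that have no replicates.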
